A study of Mus musculus with 21 samples.

Results

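The transcripts described here are 10 genes that mark undifferentiated spermatogonia or belong to the pluripotency network: Zbtb16, Foxo1, Id4, Nanos2, Nanos3, Utf1, Neurog3, Sall4, Lin28a and Pou5f1. They were taken by name from a table of 32643 genes, and 10 of the 10 were found and passed the filter on low counts, as did 20254 genes in all. RNA came from whole testes of 21 mice killed at postnatal day 10, on a mixed background of 129sv and C57Bl6. The mice were wild type (WT) or homozygous knockouts of the bile acid receptor FXRα (KO), a gene named Nr1h4. Within a genotype, mice received vehicle, bisphenol A (BPA, a building block of plastics that acts weakly on estrogen receptors) or the plant sterol stigmasterol. A WT group had 4 animals and a KO group 3. The sources used here do not give the deleted part of the gene, the doses, the vehicle or the litters.

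At this age germ cells in the tubules are spermatogonia or have just entered meiosis, and Sertoli cells surround them. Spermatogonial stem cells are a small share of the undifferentiated spermatogonia, which also include progenitors that will differentiate in response to retinoic acid. Zbtb16 (PLZF) and Foxo1 are transcription factors that stem cells need for self-renewal, Id4 is an inhibitor of basic helix-loop-helix factors that marks the stem cell end of the pool, and Nanos2 is an RNA-binding protein that blocks differentiation. Nanos3 and Neurog3 are found mostly in the progenitors, and Utf1 in early undifferentiated spermatogonia. Sall4, Lin28a and Pou5f1 (OCT4) are factors shared with embryonic stem cells that germ cells also use: a zinc finger factor, a blocker of let-7 microRNA maturation and a POU domain factor.

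Utf1 and Pou5f1, which the genotype comparisons below turn on, and Neurog3, which came next to them, are shown by bases upstream of their RefSeq transcription starts (GRCm38.p6, plus strand, read 5′ to 3′). Each stretch stops where an exon annotated by GENCODE begins, 67 bases before the RefSeq start in Utf1, 14 in Pou5f1 and 0 in Neurog3. The Utf1 stretch is chr7:139943606-139943788, the Pou5f1 stretch chr17:35505782-35506017 and the Neurog3 stretch chr10:62132840-62133089. Capitals mark each GC box (GGGCGG on either strand) in Utf1 and Pou5f1, and the E-box (CANNTG) in Neurog3.
Utf1: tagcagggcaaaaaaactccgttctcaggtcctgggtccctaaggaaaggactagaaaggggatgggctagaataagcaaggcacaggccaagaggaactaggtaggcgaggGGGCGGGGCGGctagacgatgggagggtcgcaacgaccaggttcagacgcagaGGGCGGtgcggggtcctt
Pou5f1: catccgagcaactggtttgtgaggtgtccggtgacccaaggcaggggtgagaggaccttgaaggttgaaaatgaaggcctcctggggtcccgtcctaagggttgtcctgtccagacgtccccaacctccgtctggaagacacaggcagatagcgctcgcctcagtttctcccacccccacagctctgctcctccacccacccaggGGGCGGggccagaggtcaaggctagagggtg
Neurog3: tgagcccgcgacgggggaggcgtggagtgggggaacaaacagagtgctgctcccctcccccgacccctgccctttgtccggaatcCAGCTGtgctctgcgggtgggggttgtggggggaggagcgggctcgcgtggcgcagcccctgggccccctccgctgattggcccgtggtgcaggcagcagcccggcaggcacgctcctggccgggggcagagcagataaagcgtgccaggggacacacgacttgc
The Utf1 window of 250 bases held 4 GC boxes, 3 of which lie in the printed stretch, and 2 of those share a base. Pou5f1 had 1 GC box in the window shown and none in the window of another RefSeq start, which begins at chr17:35508557. Neurog3 had none. The GC box was in 32.7% of 32851 RefSeq promoter windows and the E-box in 66.2%. The octamer ATGCAAAT, the motif of POU factors, was in 1.6% of the windows and in none of the 8 members' windows searched. RefSeq windows for Zbtb16 and Sall4 were not used here. These matches describe letters only.

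The libraries held 35459523 to 61498855 counted reads, which puts the limit of detection, 3 reads, at 0.0488 to 0.0846 counts-per-million (CPM). Levels below are CPM after TMM scaling, and a gene is called where its adjusted p in edgeR's quasi-likelihood test (Benjamini-Hochberg over all 20254 genes of a contrast, two-sided) is under 0.05. The targeted gene, Nr1h4, ranged from 0.241 to 0.868 CPM among 12 WT animals and from 0.172 to 0.492 CPM among 9 KO animals, so the genotypes overlapped at this low level. Its log2 fold change averaged over the treatments, -0.78 (adjusted p = 0.0303), lost its call when T61, T1, T117, T10 or T93 was left out (adjusted p up to 0.0598). The 8 general germ cell markers tested, led by Dazl and Ddx4, summed to 935 to 1970 CPM, and the animal with the lowest sum was WT vehicle animal T81. Cdh16, a cadherin of epididymal epithelium, was at 10 CPM or more in 9 libraries, called Cdh16-rich here: WT animals T81, T60 and T75 and KO animals T1, T110, T83, T117, T10 and T93. The 12 others had Cdh16 at 0.1 to 2.62 CPM, so the border is one of level and not of presence, and the summed epididymal list was at 101 to 103 CPM in T90, T25 and T15, as in the Cdh16-rich T81 (102 CPM). Fits without the 9 keep a single KO animal in each treatment, T90, T25 or T15, whose spread is assumed equal to that of the WT animals.

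Per kb of the longest annotated transcript, Lin28a was the most abundant of the 10, at 30.0 ± 4.32 CPM per kb (SD, n = 21), and Nanos2 the least, at 0.775 ± 0.187. Zbtb16 (15.8 ± 2.67 CPM per kb), Sall4 (15.5 ± 1.84) and Foxo1 (13.6 ± 1.06) followed Lin28a. Zbtb16 was above Sall4 in 12 of 21 libraries, so the order of these 2 is not settled by their spread. Nanos3 came next at 9.15 ± 1.99, then Pou5f1 at 5.6 ± 1.91, Neurog3 at 4.32 ± 1.07, Utf1 at 2.8 ± 1.33 and Id4 at 2.56 ± 0.545 CPM per kb. Utf1 was above Id4 in 12 of 21 libraries, and Pou5f1 was above Neurog3 in 17. The order depends on the transcript length used. The authors' own length per gene, implied by their deposited values per kb, was 481 bases for Lin28a against 3505 for the longest transcript, and 773 against 5073 for Sall4. Under the authors' lengths Sall4 stood at 101 CPM per kb and Zbtb16 at 15.9.

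**Figure D1:**
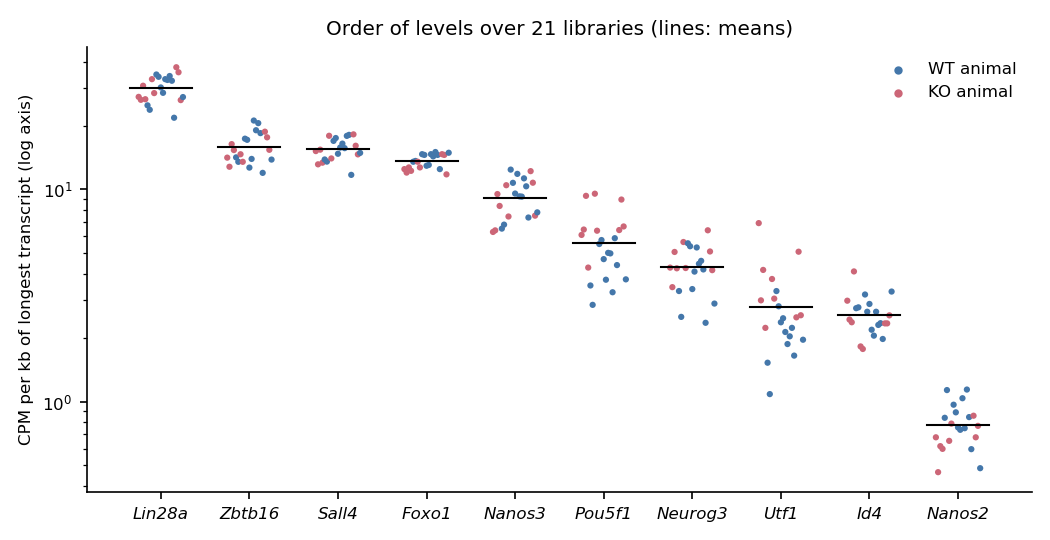
Level of each gene in CPM per kb of its longest annotated transcript (vertical log axis) in each of the 21 libraries (points, WT blue, KO red), with the mean as a line. Lin28a lies highest at 30.0 and Nanos2 lowest at 0.775 CPM per kb, and the points of Zbtb16 and Sall4 overlap.

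The vehicle groups compare the genotypes in animals given neither compound. Utf1 and Pou5f1 were higher in KO testes and were called. These are 2 of the 10 genes, where 2.92% of all genes tested were called and 1.24% were called higher. The other 8 did not pass, and 6 of these 8 had a positive fold change, beside 52.4% of all genes tested. The median log2 fold change of the 10 was 0.14, beside 0.01 over all genes tested. Without WT vehicle animal T81 this median was 0.0325 and 6 of the 10 were positive. In the stigmasterol groups the same pair was called higher in KO testes, where 7.21% of genes were called and 3.87% called higher, and in the BPA groups none of the 10 was, where 0.859% were called. None of the 10 had an unadjusted p under 0.05 in the BPA groups, beside 1653 of the 20254 genes tested. DESeq2 and limma-voom called none of the 10 there either. Averaged over the treatments, Utf1 and Pou5f1 were again the 2 called, where 13.9% of genes were called and 6.85% called higher.

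**Figure D2:**
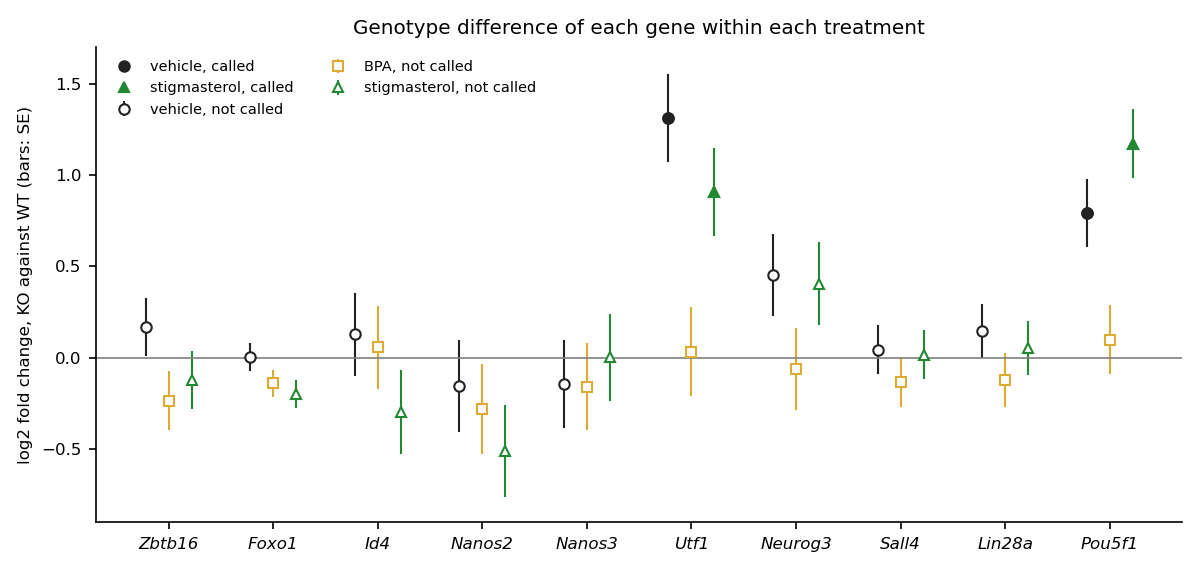
Log2 fold change of KO against WT (vertical axis, bars are SE) for each gene in the vehicle (circles), BPA (squares) and stigmasterol (triangles) groups, with filled symbols for called values. Only Utf1 and Pou5f1 have filled symbols, for vehicle and stigmasterol, while their BPA values lie near 0.

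Utf1 (ENSMUSG00000047751, chromosome 7, 139943789 to 139945112, plus strand, mm10) encodes a chromatin-associated protein of embryonic stem cells and early spermatogonia. Among WT vehicle animals its level was 2.9 CPM in T66, 3.03 in T71, 2.73 in T79 and 2.02 in T81. Among KO vehicle animals it was 8.51 CPM in T1, 6.24 in T90 and 5.12 in T110. The lowest KO vehicle animal therefore lay above the highest of the WT animals in any treatment, which was T60 (BPA) at 4.07 CPM. Means were 2.67 ± 0.449 CPM (SD, n = 4) in WT and 6.62 ± 1.73 CPM (SD, n = 3) in KO. The log2 fold change was 1.31 ± 0.24 (SE, adjusted p = 0.00446 in edgeR). It stayed called without any 1 of the 7 animals (adjusted p 0.00539 to 0.0462).

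With stigmasterol, Utf1 stood at 2.49 CPM (T78), 2.4 (T98), 1.87 (T118) and 1.33 (T119) in WT animals and at 3.68 CPM (T10), 4.64 (T15) and 3.13 (T93) in KO animals. The groups did not overlap, and the log2 fold change was 0.91 ± 0.243 (SE, adjusted p = 0.0294). This call was lost without WT animal T118 (adjusted p = 0.0771) or T119 (0.0907), or without KO animal T10 (0.0653) or T15 (0.131). With BPA, Utf1 was at 4.07 CPM (T60), 2.29 (T75), 3.45 (T61) and 2.61 (T74) in WT animals and at 3.75 CPM (T25), 3.06 (T83) and 2.73 (T117) in KO animals. These ranges overlapped, and the fold change was smaller than its SE. Averaged over the treatments, Utf1 was 2.6 ± 0.726 CPM (SD, n = 12) in WT and 4.54 ± 1.87 CPM (SD, n = 9) in KO testes, and the log2 fold change, 0.75 ± 0.14 (SE, adjusted p = 0.00159), stayed called without any 1 of the 21 animals. Without the 9 Cdh16-rich libraries, the Utf1 call was lost in vehicle (1.10, adjusted p = 0.491), in stigmasterol (1.18, adjusted p = 0.202) and in the average (0.86, adjusted p = 0.0631), while each fold change kept its direction. The 3 KO animals outside the Cdh16-rich set had 6.24 (T90, vehicle), 3.75 (T25, BPA) and 4.64 CPM (T15, stigmasterol).

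Some markers of other cell types were called between genotypes in the comparisons that called Utf1 and Pou5f1, while no general germ cell marker was. The vehicle counts below stand beside 2.92% of all genes tested that were called and 52.4% that were positive. By calls, the meiotic prophase list (1 of 24) was near all genes, and the germ cell list had none. In vehicle the 8 general germ cell markers all had positive fold changes with none called (median log2 fold change 0.34), and their summed level was 1660 to 1900 CPM in KO and 935 to 1680 CPM in WT vehicle animals. Of 24 meiotic prophase genes 23 were positive and 1 was called, Ccna1, a cyclin of male meiosis (1.63, adjusted p = 0.00319), which stayed called without any 1 animal. Of 16 Sertoli cell markers 13 were negative and 4 were called lower, Gstm6, Rhox8, Dhh and Sox9, each of which lost its call without T81, T1, T90 or T110, and Rhox8 also without T66 and Sox9 without T71 (adjusted p up to 0.125). The summed level of the list was 6060 to 6430 CPM in KO and 6000 to 9550 CPM in WT vehicle animals. In whole testes fewer cells of a type and less RNA per cell cannot be told apart. Scaled to 1000 CPM of the summed germ cell markers, Utf1 was 3.08 to 4.49 in KO and 1.73 to 2.16 in WT vehicle animals. The markers are those of germ cells in general, so this scale does not give a level per undifferentiated spermatogonium. The share of all genes without overlap on this scale was not computed, here or for the scaled values below. All 11 epididymal markers were positive in vehicle with 1 called, Epcam, and their summed level was 101 to 339 CPM in KO and 62.6 to 102 CPM in WT animals.

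In stigmasterol 5 of the 11 epididymal markers were called higher in KO testes (45.5%, beside 7.21% of all genes; median log2 fold change 4.27): Cdh16, Epcam, Krt8, Defb1 and Lcn2. Their summed level was 103 to 663 CPM in KO and 52.8 to 82.2 CPM in WT animals, which did not overlap. All 16 Sertoli cell markers were negative there with none called, and 7 of 8 germ cell markers were positive with none called. In the average 10 of the 11 epididymal markers (90.9%) and 4 of 5 fat cell markers (80.0%; Car3, Fabp4, Adipoq and Cfd) were called higher, and 8 of 16 Sertoli cell markers (50.0%) were called lower, beside 13.9% of all genes. The summed fat cell level was 94.6 CPM in KO BPA animal T117 and 9.24 to 24.0 CPM in the other animals. Fits without T117 are not given here for the fat cell genes. The part of these markers in the Utf1 and Pou5f1 differences was not tested beyond the fits without the Cdh16-rich libraries. Scaled to the germ cell markers as above, Utf1 in the stigmasterol groups had 1.89 to 2.44 in KO and 1.04 to 1.76 in WT animals.

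Pou5f1 (ENSMUSG00000024406, chromosome 17, 35506018 to 35510772, plus strand, mm10) had 6.39 CPM in T66, 5.11 in T71, 8.02 in T79 and 5.99 in T81, the WT vehicle animals. The KO vehicle animals had 8.31 CPM (T1), 12.2 (T90) and 12.7 (T110). The groups did not overlap, but KO animal T1 was close to WT animal T79. The log2 fold change was 0.79 ± 0.187 (SE, adjusted p = 0.0271). This call was lost without WT animal T66 (adjusted p = 0.0533), T71 (0.0639) or T81 (0.0885), without KO animal T90 (0.113) or T110 (0.117), when only the vehicle groups were fitted (0.14), and without the Cdh16-rich libraries (0.454) or those with Alb at 10 CPM or more (0.0537).

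The stigmasterol groups gave the larger Pou5f1 difference. The WT animals had 4.46 CPM (T78), 5.13 (T98), 4.8 (T118) and 3.89 (T119), and the KO animals had 8.81 CPM (T10), 13.0 (T15) and 9.11 (T93). The highest WT animal was well below the lowest KO animal, and the log2 fold change was 1.17 ± 0.188 (SE, adjusted p = 0.00115). It stayed called without any 1 of the 7 animals (adjusted p 0.00242 to 0.00637) and without the Cdh16-rich libraries (1.5, adjusted p = 0.0304). With BPA the level was 7.53 CPM (T60), 6.8 (T75), 7.86 (T61) and 6.84 (T74) in WT animals and 8.7 CPM (T25), 8.76 (T83) and 5.83 (T117) in KO animals. KO animal T117 was the lowest of the 7, and the fold change was smaller than its SE. The average over the treatments was 0.69 ± 0.108 (SE, adjusted p = 0.000341), which stayed called without any 1 of the 21 animals and without the Cdh16-rich libraries (0.87, adjusted p = 0.0175). Scaled to 1000 CPM of the germ cell markers, Pou5f1 was 4.39 to 7.63 in KO and 3.28 to 6.4 in WT vehicle animals, which overlapped, and 4.53 to 6.85 in KO and 2.6 to 3.15 in WT stigmasterol animals, which did not.

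Genes on either side of Pou5f1 differed between genotypes in the same treatments. Pou5f1 lies among the MHC class I genes, which present peptides on the cell surface, and of the other tested genes within 1 Mb of it on either side 18 were called in vehicle (15.1%), 18 in stigmasterol (15.1%) and 0 in BPA, beside 2.92%, 7.21% and 0.859% of all genes. In the average over treatments 34 of them were called (28.6%, beside 13.9% of all genes), 27 of these higher in KO testes. H2-Q10, H2-Q2 and H2-Q1, picked after their values were seen, are 31.5, 159 and 181 kb away. H2-Q10 was at 1.67 to 2.09 CPM in KO vehicle animals against 46.3 to 89.6 CPM in WT vehicle animals. It was at 64.9 to 77.9 CPM in KO BPA animals, within the range of all WT animals, and at 2.16 CPM (T10), 34.7 (T15) and 40.8 (T93) in the KO animals given stigmasterol. KO animals thus differed from each other at this gene. In the KO animals with H2-Q10 at 1.67 to 2.16 CPM, Pou5f1 was at 8.31 (T1), 12.2 (T90), 12.7 (T110) and 8.81 CPM (T10). It was at 13.0 CPM in T15 and 9.11 CPM in T93, with H2-Q10 at 34.7 and 40.8 CPM. In the KO BPA animals Pou5f1 was at 8.7 (T25), 8.76 (T83) and 5.83 CPM (T117). H2-Q2, among the 3 genes whose pattern was most like that of Pou5f1, was at 4.86 to 6.21 CPM in KO vehicle, 4.18 to 4.73 in KO BPA and 4.36 to 8.12 in KO stigmasterol animals, against 2.26 to 3.99 CPM over the WT animals. H2-Q1 was at 1.87 to 3.65 CPM in KO vehicle and 2.5 to 4.06 CPM in KO stigmasterol animals. Its level was 0.626 to 1.14 CPM in KO BPA animals and 0.142 to 0.834 CPM over the WT animals. H2-Q1 was called higher in KO testes in vehicle (2.23, adjusted p = 0.0024 in edgeR) and stigmasterol (2.82, adjusted p = 0.000252). In BPA it was not called (1.06, adjusted p = 0.408). MHC class I genes are alike in sequence and can share reads. The part of the neighbouring region in the Pou5f1 difference was not tested.

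**Figure D3:**
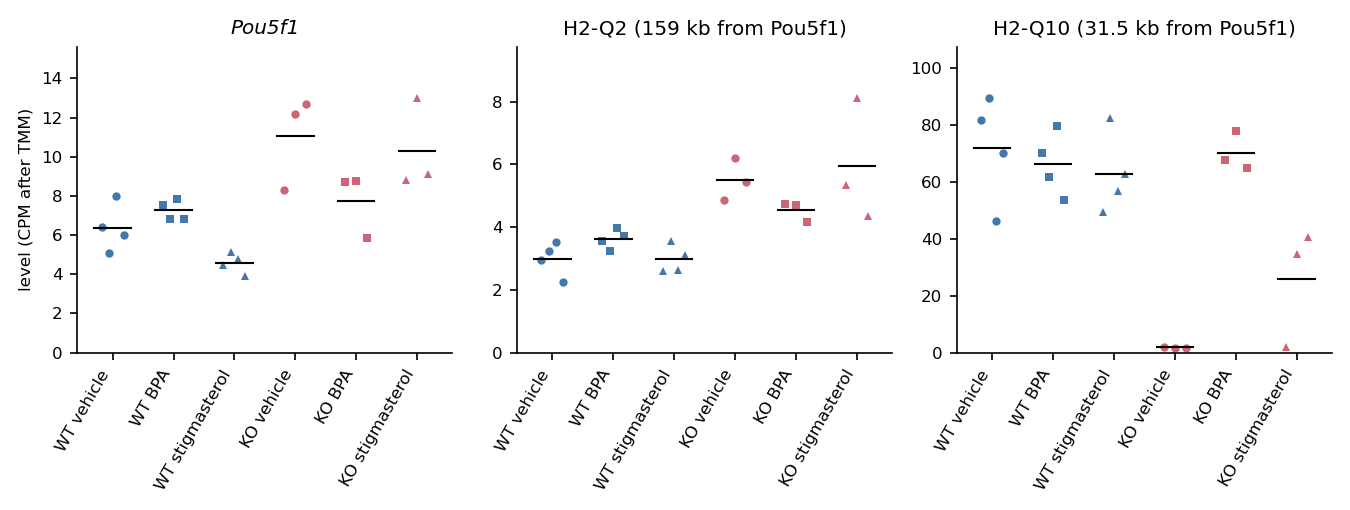
Level (CPM after TMM, linear axes) of Pou5f1 and of the nearby MHC class I genes H2-Q2 and H2-Q10 in each animal (points) by group, with group means as lines. H2-Q10 is at 1.67 to 2.09 CPM in KO vehicle animals and at 64.9 to 77.9 CPM in KO BPA animals, and Pou5f1 is high in KO vehicle and KO stigmasterol animals.

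Called neighbours of the other members were counted in the same way. Within 1 Mb of Utf1, 1 of 36 tested genes was called in vehicle (2.78%) and 0 in stigmasterol. Nanos2 had 33 of 71 neighbours called in the average (46.5%), Nanos3 had 26 of 73 (35.6%) and Foxo1 had 7 of 13 (53.8%), and these 3 members were not called in that contrast. Zbtb16, Id4, Neurog3, Sall4 and Lin28a had 2.63% to 11.1% of their neighbours called, below the 13.9% of all genes.

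Neurog3 (ENSMUSG00000044312, chromosome 10, 62133090 to 62134763, mm10), a basic helix-loop-helix factor of progenitors, was the third member whose vehicle groups did not overlap. The WT vehicle animals had 5.22 CPM (T66), 6.31 (T71), 6.46 (T79) and 3.62 (T81), and the KO vehicle animals 6.59 CPM (T1), 7.85 (T90) and 7.81 (T110). The distance between the highest WT and the lowest KO animal was small, and the log2 fold change of 0.46 ± 0.225 (SE) was not called (adjusted p = 0.255). That 3 of the 10 did not overlap, all higher in KO, compares with 16.3% of all genes that did not overlap in these groups and 8.25% that did so with KO higher. In stigmasterol 3 of the 10 did not overlap, beside 17.0% of all genes: Utf1 and Pou5f1 with KO higher, and Foxo1 with KO lower. In BPA none of the 10 was free of overlap, beside 10.4%, and none was over all 12 WT and 9 KO animals, beside 1.05%. The reads of Neurog3 come with a limit, since the gene lies inside the span of Fam241b on the other strand and the kit did not keep the strand. Fam241b, listed under an older name, was at 11.2 CPM or more in every library.

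Foxo1 (ENSMUSG00000044167, chromosome 3), the target of PI3K-AKT signals in stem cells, had the smallest spread of the 10, with a range of 0.35 on the log2 scale over 21 libraries. With stigmasterol its level was 130.1 CPM (T78), 128.7 (T98), 117.3 (T118) and 118.4 (T119) in WT animals and 104 CPM (T10), 116.9 (T15) and 102.5 (T93) in KO animals. T15 sat just below the lowest WT animal, and the log2 fold change of -0.20 ± 0.0743 (SE) was not called (adjusted p = 0.118). In the vehicle groups both genotypes ranged from 108 to 126 CPM. The average over treatments was -0.11 ± 0.0428 (adjusted p = 0.0946). It became a call without KO animal T90 (-0.14, adjusted p = 0.0376) or KO animal T83 (-0.14, adjusted p = 0.0357).

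Zbtb16 (ENSMUSG00000066687, chromosome 9) was at 61.2 to 94.2 CPM in WT vehicle and 72.2 to 90 CPM in KO vehicle animals, and the KO range lay inside the WT range. Its genotype fold changes were 0.17 ± 0.159 (SE, adjusted p = 0.565) in vehicle and -0.23 ± 0.16 (adjusted p = 0.836) in BPA, and smaller than the SE in stigmasterol and in the average. The 95% interval of the vehicle value ran from -0.17 to 0.51 on the log2 scale.

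Nanos2 (ENSMUSG00000051965, chromosome 7) was the least abundant member, at 0.726 to 1.78 CPM, and was detected above the limit of 3 counts in every library. In the vehicle groups WT animals had 0.932 to 1.32 CPM and KO animals 0.963 to 1.06 CPM, inside the WT range. With stigmasterol the WT animals had 1.78 CPM (T78), 0.758 (T98), 1.31 (T118) and 1.77 (T119), and the KO animals 0.726 CPM (T10), 1.02 (T15) and 1.2 (T93). Animal T98 was low within its group, near the lowest KO animal. The stigmasterol fold change was -0.51 ± 0.25 (SE, adjusted p = 0.25) and the average over treatments was -0.31 ± 0.144 (adjusted p = 0.161). Without T98 both were called, at -0.72 (adjusted p = 0.0489) and -0.38 (adjusted p = 0.0336). Scaled to the germ cell markers, Nanos2 was 0.561 to 0.593 per 1000 CPM in KO vehicle animals and 0.706 to 0.996 in WT vehicle animals. The markers summed to 1660 to 1900 CPM in KO and 935 to 1680 CPM in WT vehicle animals. A gene with like CPM in both genotypes therefore tends to come out lower in KO vehicle animals on that scale. On that scale the genotypes overlapped in BPA (0.662 to 0.854 in KO, 0.766 to 0.955 in WT) and in stigmasterol (0.374 to 0.857 in KO, 0.384 to 1.38 in WT).

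Nanos3 (ENSMUSG00000056155, chromosome 8), an RNA-binding relative of Nanos2, was at 5.38 to 8.64 CPM in WT vehicle and 4.6 to 7.85 CPM in KO vehicle animals. Each of its 3 genotype fold changes was smaller than its SE, as was the average. Id4 (ENSMUSG00000021379, chromosome 13) was at 7.59 to 11.1 CPM in WT vehicle and 8.99 to 11.5 CPM in KO vehicle animals. With stigmasterol its fold change was -0.30 ± 0.229 (SE, adjusted p = 0.506), and the WT range (8.84 to 12.7 CPM) overlapped that of KO animals (7.0 to 9.81 CPM). KO BPA animal T117 had 15.8 CPM of Id4, the highest of the 21, while T25 and T83 had 6.81 and 8.99 CPM. In T117 the summed level of 5 fat cell markers, among them Adipoq and Fabp4, was 94.6 CPM, against 9.24 to 24.0 CPM in the other animals, and their part in the Id4 level was not tested.

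Sall4 (ENSMUSG00000027547, chromosome 2) and Lin28a (ENSMUSG00000050966, chromosome 4) had ranges that overlapped between the genotypes in every treatment. Sall4 was at 59.4 to 91.7 CPM in WT vehicle and 76.9 to 81.5 CPM in KO vehicle animals, and its 95% interval of the log2 fold change was -0.24 to 0.33. Lin28a was at 76.3 to 114 CPM in WT vehicle and 95.7 to 125 CPM in KO vehicle animals, and its log2 fold change was 0.15 ± 0.147 (SE, adjusted p = 0.591). Averaged over the treatments, the 95% interval was -0.19 to 0.14 for Sall4 and -0.15 to 0.21 for Lin28a. These intervals leave out a log2 change of the size that Utf1 or Pou5f1 showed. The group means explained 11.7% of the variance of Sall4 between libraries and 27.8% of that of Lin28a, but 79.1% of that of Pou5f1 and 76.7% of that of Utf1.

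**Figure D4:**
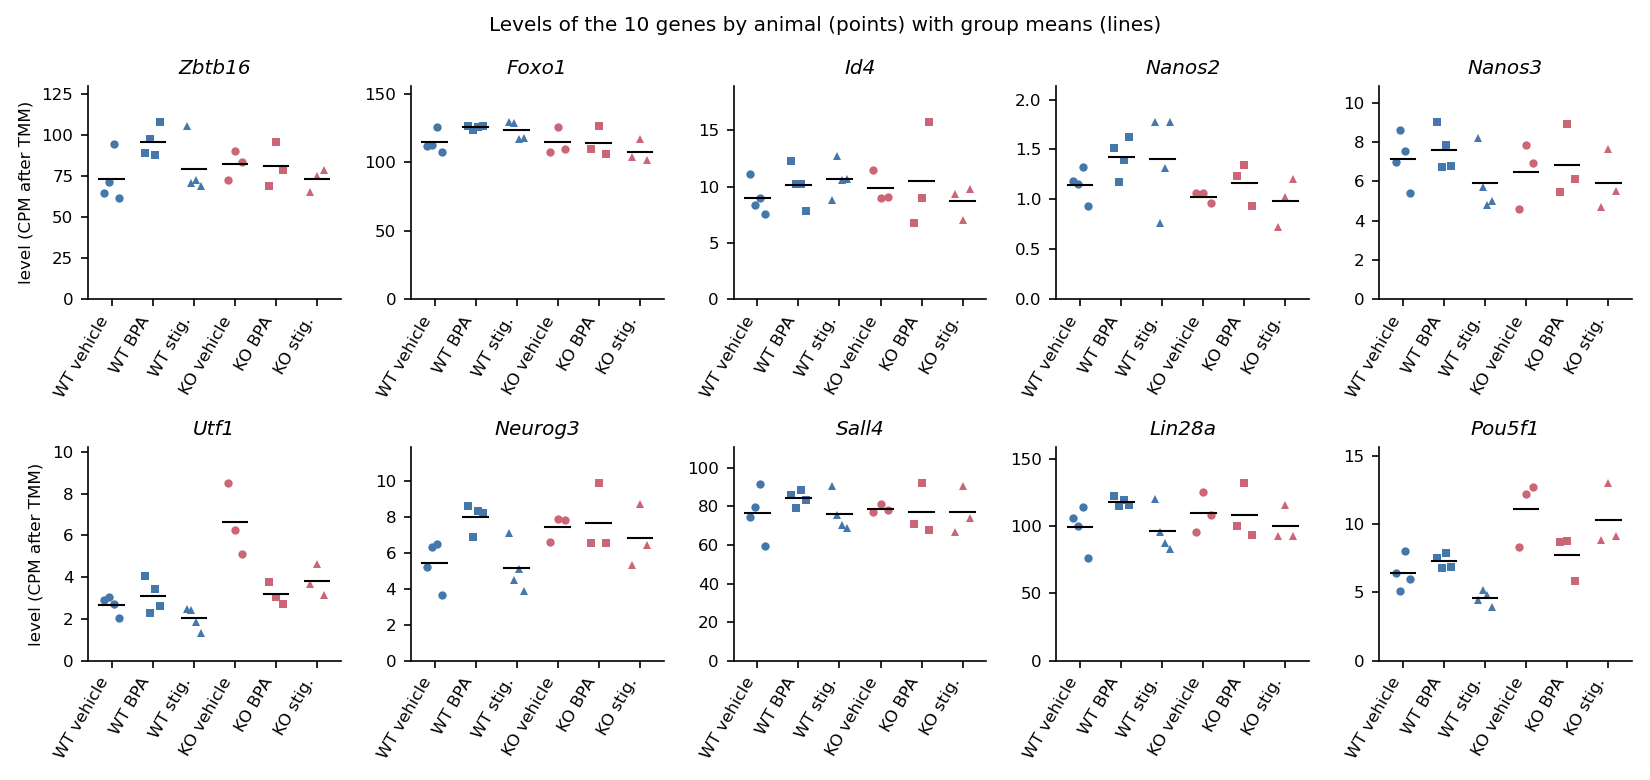
Level of each of the 10 genes (CPM after TMM, linear axes from 0) in each animal (points, WT blue, KO red, symbols by treatment) with group means as lines. Utf1 is highest in the 3 KO vehicle animals (5.12 to 8.51 CPM), while Foxo1, Sall4 and Lin28a keep close levels over the 6 groups.

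BPA and stigmasterol were each compared with vehicle within a genotype. None of the 10 was called in any of these 4 contrasts, where 0.0% (BPA in WT), 0.00494% (stigmasterol in WT), 0.0148% (BPA in KO) and 0.0% (stigmasterol in KO) of all genes were called. At an unadjusted p under 0.05 in edgeR the numbers of members were 2, 1, 2 and 1 in that order. Of all 20254 genes tested, 3798, 1672, 873 and 779 were under that value. DESeq2 called none of the members in these contrasts. In WT animals given BPA 10 of the 10 had positive fold changes, beside 52.2% of all genes, with a median of 0.20 beside 0.01. Vehicle animal T81 was the lowest of its group for 9 of the 10 genes and had the lowest germ cell marker sum. Without T81, 9 of the 10 were positive with a median of 0.12. In KO animals given stigmasterol 0 of the 10 had positive fold changes (median -0.12), beside 51.8% of all genes. Only the values of Utf1 and Foxo1 were larger than their SE there. Members that vary together across animals do not give independent signs, in this or the other counts of signs.

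Neurog3 and Lin28a did not overlap between the WT BPA and WT vehicle groups, where 8.1% of all genes did not. Neurog3 stood at 8.58 CPM (T60), 6.87 (T75), 8.31 (T61) and 8.2 (T74) with BPA, all above the 3.62 to 6.46 CPM of the vehicle animals (0.56 ± 0.21, SE, adjusted p = 0.16). The authors' deposited table gives 0.56 with an adjusted p of 0.11. Lin28a was at 115 to 122 CPM with BPA and 76.3 to 114 CPM with vehicle (0.25 ± 0.137, adjusted p = 0.331). Zbtb16 was at 87.6 to 108 CPM with BPA, above 3 of the 4 vehicle animals (0.39 ± 0.148, adjusted p = 0.17), and was called without vehicle animal T79 (0.53, adjusted p = 0.0341). In that fit 1321 genes were called (6.53%), where the fit of all animals called 0. Between WT stigmasterol and WT vehicle animals none of the 10 was free of overlap, beside 3.44% of all genes. Pou5f1 had the smallest p of the 10 there, with 3.89 to 5.13 CPM against 5.11 to 8.02 CPM in vehicle (-0.48 ± 0.177, adjusted p = 0.488).

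In KO animals Utf1 was lower with either compound than with vehicle and the groups did not overlap, where 11.1% (BPA) and 9.59% (stigmasterol) of all genes did not. The 3 BPA animals had 2.73 to 3.75 CPM, the 3 stigmasterol animals 3.13 to 4.64 CPM and the 3 vehicle animals 5.12 to 8.51 CPM. The log2 fold change was -1.06 ± 0.26 (SE, adjusted p = 0.607) for BPA and -0.80 ± 0.258 (adjusted p = 1) for stigmasterol. For the former, the authors' deposited table gives -1.06 with an adjusted p of 0.07, and for the latter -0.8 with 0.5. Pou5f1 in KO BPA animals was -0.51 ± 0.201 against vehicle (adjusted p = 0.897), with ranges that overlapped. These comparisons share their vehicle animals with the genotype comparison above.

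The interactions ask whether a compound's effect differed between the genotypes. None of the 10 was called, where 0.0148% (BPA) and 0.00987% (stigmasterol) of all genes were. The BPA interaction of Utf1 was -1.28 ± 0.344 (SE, unadjusted p = 0.00156 in edgeR, adjusted p = 0.536) and that of Pou5f1 was -0.69 ± 0.267 (unadjusted p = 0.0178, adjusted p = 0.536). These 2 were the members under an unadjusted p of 0.05, beside 1788 of the 20254 genes tested, and DESeq2 called none of the 10. In the BPA interaction 0 of the 10 had a positive value (median -0.22), beside 49.2% of all genes. The values of Id4, Nanos2, Nanos3 and Sall4 were smaller than their SE. This contrast includes WT vehicle animal T81, the lowest of its group for 9 of the 10 genes, and its median without T81 was not computed. Utf1 and Pou5f1 were called in vehicle and not in BPA, but with no called interaction this is not a called difference between the treatments. The stigmasterol interaction of Utf1 was -0.40 ± 0.344 (adjusted p = 0.77) and that of Pou5f1 0.38 ± 0.267 (adjusted p = 0.705). No member had an unadjusted p under 0.05 there, beside 1855 of the 20254 genes tested.

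Across the 21 libraries, which differ in depth and in germ cell content, 6 members, grouped after their values were seen, mostly varied together: Lin28a, Sall4, Neurog3, Nanos3, Zbtb16 and Foxo1. Over their 15 pairs Pearson's r was 0.355 (Neurog3 and Foxo1) to 0.896, and 0.652 to 0.935 after the group means were subtracted. The 30 other pairs reached 0.773 and, after subtraction, 0.674 (Pou5f1 and Foxo1), so the border is not sharp. Pearson's r of log2 CPM between Lin28a and Sall4 was 0.896 (Spearman's rho 0.879), and 0.918 after the group means were subtracted. Lin28a had r = 0.872 with Neurog3 and 0.824 with Nanos3. Utf1 and Pou5f1 had r = 0.773 over all libraries but 0.22 after the group means were subtracted. Id4 had an r of -0.356 to -0.00993 with the other members. These values are descriptions with no test. Within groups single animals stood out over many members: T79 was the highest WT vehicle animal for 7 of the 10 genes, T78 the highest WT stigmasterol animal for 8, T83 the highest KO BPA animal for 8 and T15 the highest KO stigmasterol animal for 7.

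**Figure D5:**
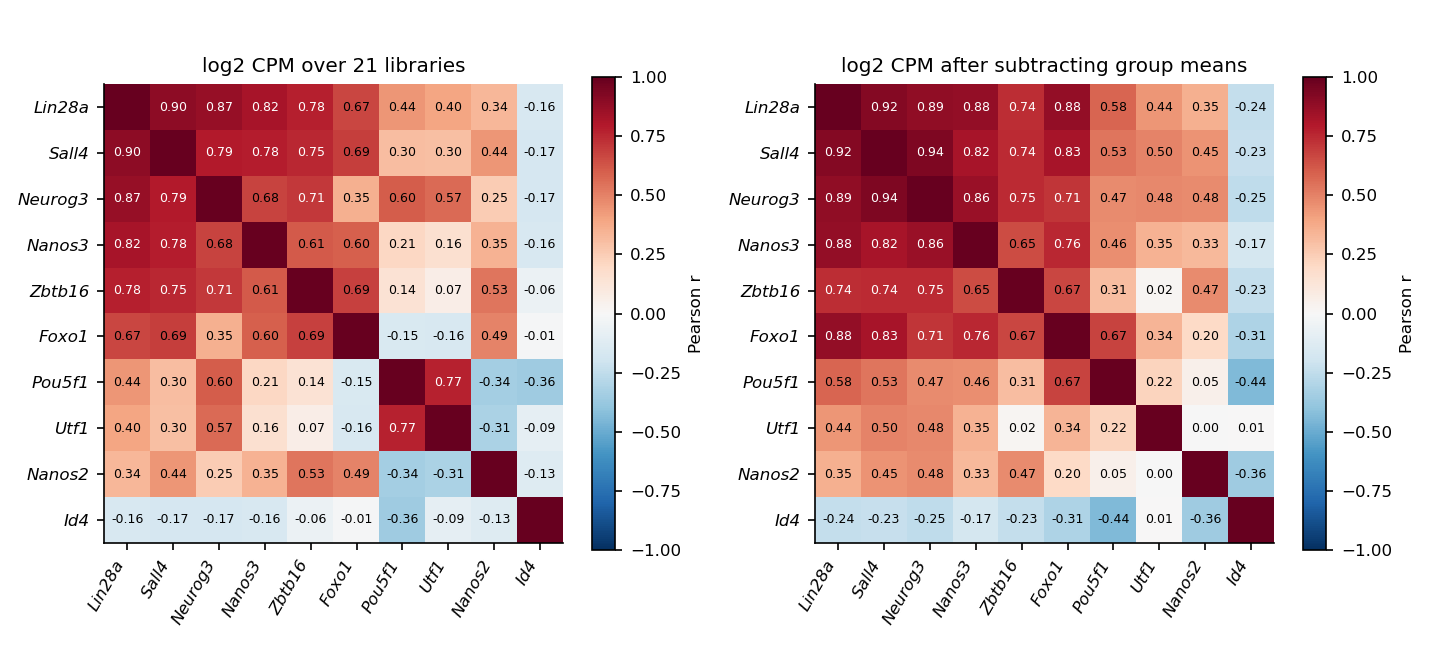
Pearson's r between the log2 CPM of each pair of the 10 genes over 21 libraries (left) and after subtracting the mean of each of the 6 groups (right), coloured from -1 (blue) to 1 (red). Pairs among Lin28a, Sall4, Neurog3, Nanos3, Zbtb16 and Foxo1 are red in both panels (palest for Neurog3 with Foxo1 at 0.355, left), while Utf1 with Pou5f1 goes from 0.77 to 0.22.

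The protein-coding genes whose patterns were most like a member's were ranked by r over the 21 libraries. For Lin28a they were Cd274 (r = 0.938), Sall1 (0.921) and Pacsin1 (0.916). For Sall4 they were Lin28a itself, Ina and Cd274 (0.848 to 0.896), and for Neurog3 Sall1, Lin28a and Ralgds (0.869 to 0.905). Zbtb16 was most like Ccdc6 (0.944), Igsf3 and Abcc4, Nanos3 most like Foxf1 (0.876), Egr4 and Fam134a, and Foxo1 most like Ppp2r1b (0.847), AI661453 and Ina. Utf1 was most like Grid1 (0.837), Snx8 and Tcp11, and Pou5f1 most like Nfkbid (0.86), H2-Q2 (0.843) and Dbx2. Nanos2 was most like E130309F12Rik (0.791), Il9r and Zfp808. Id4 was most like Anxa13 (0.8), Scd1 (0.744) and Plin4 (0.716), the latter pair being genes of lipid synthesis and lipid droplets.

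Other genes of the same cells and pathways were counted by list. Of 26 other markers of undifferentiated spermatogonia, such as the GDNF receptor genes Gfra1 and Ret, none was called between genotypes in vehicle or BPA, and 9 and 8 were positive. In stigmasterol 1 was called higher, Thy1 (1.97 ± 0.567, SE, adjusted p = 0.0419), a surface protein that lymphocytes and stroma also carry, and 1 lower, Tspan8 (-1.02 ± 0.18, adjusted p = 0.00272), a tetraspanin. These 2 are 7.69% of the list, near the 7.21% of all genes. The Thy1 value rested on KO animal T93, which had the highest Cdh16 of the 21 (203 CPM): without it the log2 fold change was 0.75 in stigmasterol and 0.67 in the average, and without the Cdh16-rich libraries 0.23 and 0.27. In the average 2 of the 26 were called higher, Thy1 (1.08, adjusted p = 0.0332) and the retinoic acid receptor gene Rarg (0.24, adjusted p = 0.0354). The 3 called lower were Tspan8 (-0.54, adjusted p = 0.00193), Etv5 (-0.33, adjusted p = 0.0263), a GDNF-induced factor, and Egr2, which the naming rule left out and is named here after its value was seen. The 5 are 19.2% of the list, beside 13.9% of all genes. The median of this list in the average was -0.17, beside 0.01 over all genes.

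The lists that follow had 0% to 15.8% of their genes called in the average, near or below the 13.9% of all genes, so their counts describe these genes and do not set the lists apart. Of 10 genes of differentiating spermatogonia 7 were positive in the average and 1 was called, Sohlh2 (0.25, adjusted p = 0.0385), a factor of the start of differentiation. Of the 21 other pluripotency factors tested, 3 were called in the average and all 3 were lower in KO testes: Mycn (-0.23, adjusted p = 0.0146), Dppa2 (-0.65, adjusted p = 0.0174) and Prdm14 (-0.73, adjusted p = 0.0229). Utf1 and Pou5f1, by comparison, were higher. Of 19 genes of FOXO and PI3K-AKT signalling 3 were called lower in the average, Foxo6 (-0.45), Foxo3 (-0.22) and Pik3ca (-0.11), and none higher, and in stigmasterol Foxo3 (-0.34, adjusted p = 0.0343) was called lower. Of the let-7 pathway genes tested with LIN28, 1 of 9 was called in the average, Dis3l2, an exonuclease that degrades uridylated pre-let-7 (-0.14, adjusted p = 0.0149). Of 10 partners and targets of NANOS proteins 1 was called lower, Pum2 (-0.11, adjusted p = 0.0392), and of 16 corepressors of PLZF and SALL4 1 was called lower, Hdac2 (-0.10, adjusted p = 0.0276). None of 6 genes for ID and E proteins was called.

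Of the calls of list genes named here, 22 are followed through the other fits, each gene counted once per contrast. The epididymal, fat cell, Leydig, endothelial and macrophage genes and Egr2 are not among them. Of the 22 calls followed, 9 stayed called in every fit that left out 1 animal. They were Ccna1 in vehicle, Tspan8 in stigmasterol, and Tspan8, Mycn, Dppa2, Dis3l2, Foxo6, Foxo3 and Hdac2 in the average. Of these 9, Ccna1 in vehicle and Tspan8 in stigmasterol were lost when only the compared groups were fitted. Mycn and Foxo3 in the average were lost without the libraries with Alb at 10 CPM or more, and Hdac2 without the low-count filter. Prdm14 was lost without T25 (adjusted p = 0.05), in DESeq2 and without the Alb libraries. Etv5 was lost without T25 or T10 (adjusted p up to 0.0536) and without the Alb libraries. In the average Pum2 and Pik3ca stayed called in 15 of 21 such fits, Thy1 in 12, Rarg in 9 and Sohlh2 in 8, and in stigmasterol Thy1 and Foxo3 in 2 of 7. All 22 lost their calls without the 9 Cdh16-rich libraries, which left 1 KO animal per treatment (adjusted p 0.217 to 0.985).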

How the data were processed

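Gene counts of 21 whole testes at postnatal day 10 were used, 1 library per animal. The deposited raw counts are whole numbers, and the authors' deposited signal is each count divided by a size factor per library, given also per kb of gene length. The authors also deposited log2 fold changes, p-values and adjusted p-values, per the file headers, for 4 comparisons with vehicle. Per the submitters' processing notes, the tools included TopHat2 2.0.10, Bowtie2 2.1.0, Bowtie and CASAVA 1.8.2, and the build was mm10. No counter or annotation is named there.

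The main test was that of edgeR 4.0.16 under R 4.3.3 (TMM scaling, filterByExpr with minimum count 10 and minimum total 15, quasi-likelihood, 1 mean per group over 6 groups, 15 residual degrees of freedom). The biological coefficient of variation was 19.2%. Benjamini-Hochberg adjustment ran over 20254 genes within each of 10 contrasts. Standard errors follow from F, as the size of a log2 fold change over F's square root. Folds under their SE are named without a value. Alternatives were DESeq2 1.42.0, limma 3.58.1 (voom), other scaling, no low-count filter, fits of the compared groups alone and libraries left out. The script was tested on simulated data. P-values set a difference against the spread between animals, estimated over the 6 groups together, and treat animals as independent although litters are not known.

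The rule for named genes took all 10 members, up to 4 called genes per pathway list by smallest p, and for each member the 3 protein-coding genes with the highest r of log2 CPM (prior count 2). The members and lists were chosen with earlier results of these data known, and 1 gene of a list is not reported here. Overlapping genes were Gm19553 (Pou5f1, at most 0.0662 CPM), Gm13061 (Lin28a), Gm14261 (Sall4), A330033J07Rik (Id4) and Fam241b (Neurog3), and the kit does not keep the strand. Annotated lengths and overlaps were from GENCODE (mm10). Lists with no member called between genotypes in vehicle, beside those in the results, were peritubular myoid cells (6 of 6 positive), endothelial cells (4 of 6), macrophages (3 of 5), fat cells (4 of 5) and liver (5 of 5). Of the Leydig cell list 4 of 8 were positive and 1 was called lower (Nr5a1). Of the lists given in vehicle only, Nr5a1 (Leydig, lower), Pecam1 (endothelial, higher) and Cd163 (macrophage, lower) were called in the average. In stigmasterol Nr5a1 and Cd163 were called lower.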

Additional observations from a re-analysis of the deposited data

Results flagged for a closer look

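Within groups of 4 animals, 30 sets of values (10 genes in 3 WT groups) were checked for an animal far from its group by Dixon's criterion, which chance meets in about 1 of 20 sets, and 2 met it. Zbtb16 in WT stigmasterol animal T78 was at 105 CPM, while T98, T118 and T119 had 70.7, 72.4 and 69.0 CPM. The same animal was the highest of its group for 8 of the 10 genes. Foxo1 in WT BPA animal T75 was at 124 CPM, while the other 3 animals had 126 to 127 CPM, a distance that is small in itself because these 4 values lie so close together.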

How the results depend on the processing

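The number of the 10 genes called between genotypes was 2 in vehicle, 2 in stigmasterol and 2 in the average. It was 2 in each under RLE scaling, no low-count filter, DESeq2 and limma-voom. It fell to 1 in vehicle and 1 in stigmasterol with only the compared groups fitted, to 0 in vehicle, 1 in stigmasterol and 1 in the average without the 9 Cdh16 libraries, and to 1 in vehicle without the 3 Alb libraries. Fits that drop libraries test fewer animals. Leaving out 1 animal in turn gave 1 to 2 in vehicle, 1 to 3 in stigmasterol (3 without T98), 2 to 3 in the average (3 without T98, T90 or T83) and 0 to 1 for BPA against vehicle in WT (1 without T79). The stigmasterol interaction of Utf1 turned from -0.40 to 0.08 without the Cdh16 libraries. The cause was not tested. Over all genes, calls between genotypes moved from 592 in vehicle to 1413 (DESeq2), 185 (compared groups) and 56 (no Cdh16 libraries), from 174 in BPA to 302, 110 and 31, and 72 without the Alb libraries, from 1461 in stigmasterol to 2207, 327 and 85, and from 2820 in the average to 257 without the Cdh16 and 1530 without the Alb libraries. Over all genes, leaving out 1 animal gave 242 (T1) to 986 (T79) calls in vehicle, 637 (T93) to 1475 in stigmasterol, and 0 to 1321 (T79) for BPA in WT. DESeq2 called 1040 genes for BPA and 84 for stigmasterol in WT, and 136 in the stigmasterol interaction. No paired analysis was possible because the replicate names are animal tags that no 2 groups share. Depth limits Nanos2 and Utf1 most, and groups of 3 or 4 animals limit every test.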
